A study of Sus scrofa domesticus with 4 samples.

Results

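ATP2A2, PLN, PDE4B and PRKAR1A are genes of calcium handling and cyclic AMP (cAMP) signalling in smooth muscle, and they were followed here in explants of pig myometrium cultured with or without the neuropeptide orexin A (OXA). All non-control probes whose design accession is a RefSeq transcript of 1 of these genes were taken, which gave 19 of 43603 probes: 6 for ATP2A2 (NM_213865), 6 for PLN (NM_214213), 3 for PDE4B (NM_001130019) and 4 for PRKAR1A (NM_214026). They stand for 4 of 3029 genes that could be named. The genes were chosen by their OXA over non-treated log2 ratios on these same 4 arrays, so those ratios are given as a description, with no test.

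The OXA-treated explants and the non-treated explants came from the middle of the uterine horns of mature crossbred gilts (Large White x Polish Landrace) aged 7 to 8 months, on days 15 to 16 of gestation. Explants of about 100 mg were preincubated for 2 h and then kept for 24 h with OXA or, as controls, without it, in the same medium with serum. The OXA dose is 10 nM in the sample labels but 10 µM in the design text of the series, and these sources do not settle it. Each of 4 arrays carried RNA of OXA-treated and of non-treated tissue in opposite dyes, and the 4 arrays stand for 4 animals. Cultures were run in duplicate, and whether a single gilt gave both RNAs of an array is not stated outright. By the sample labels, Cy5 marked the OXA-treated RNA on arrays 1 and 3, and Cy3 marked it on arrays 2 and 4.

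Contraction of uterine smooth muscle follows the calcium level of the cytosol. SERCA2, the pump encoded by ATP2A2, returns calcium to the sarcoplasmic reticulum, and phospholamban, the small membrane protein encoded by PLN, holds the pump back until it is phosphorylated. Protein kinase A does this when cAMP binds its regulatory subunits, of which PRKAR1A encodes one, and frees the catalytic subunits. PDE4B encodes a phosphodiesterase that breaks cAMP down. In the myometrium, cAMP is known as a relaxing signal.

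The direction of the ratios is not settled, and this bears on every value below. The labelling protocol's wording has OXA-treated RNA in Cy5 throughout, against the sample labels. Over the 19501 tested probes, array 2 and array 4, both with OXA in Cy3, had log2 ratios that correlated at r = -0.38 (across probes, not independent samples). Arrays 1 and 2 correlated at r = -0.59. Arrays 1 and 4 correlated at r = 0.62, arrays 1 and 3 at r = 0.23, arrays 2 and 3 at r = -0.30 and arrays 3 and 4 at r = -0.06. Gene means of ATP2A2, PLN, PDE4B and PRKAR1A are therefore given as labelled and with array 2 turned. Means of other genes are as labelled unless stated otherwise. Turning array 2 alone matches neither source, since the protocol's wording would turn arrays 2 and 4 together. It was chosen from these correlations, so closer agreement between arrays after turning is partly built in. Gene means with OXA in Cy5 throughout are given in the section on dependence on processing. The median log2 ratio of tested probes lay between -0.05 and 0.01 on each array. The median over 1985 tested genes that could be named was 0.27, -0.32, 0.04 and 0.33 on arrays 1 to 4, so a named gene with such values moved as the typical named gene did.

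Fitted over the whole table, limma called 0 of 19501 probes for OXA (0.0%, lowest adjusted p = 0.998), with 234 at an unadjusted p under 0.05. With array 2 turned it also called 0 (0.0%, lowest adjusted p = 0.0694), with 5263 at an unadjusted p under 0.05. Without array 2, limma called 1093 probes, and 1 to 6 without another array. Both channels of every array measured all 19 probes of these genes well above background, which held for 35.1% of all probes. None was saturated or carried an outlier flag. The scanner's own error of a log2 ratio was 0.20 to 0.29 over their 76 values. Of the 19 probes, 1 had a log2 ratio of the same sign on all 4 arrays, which held for 7.72% of tested probes, and with array 2 turned 6 did, against 35.5%. Each value is that of whole explants, in which fewer cells of a type and less RNA per cell cannot be told apart.

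**Figure D1:**
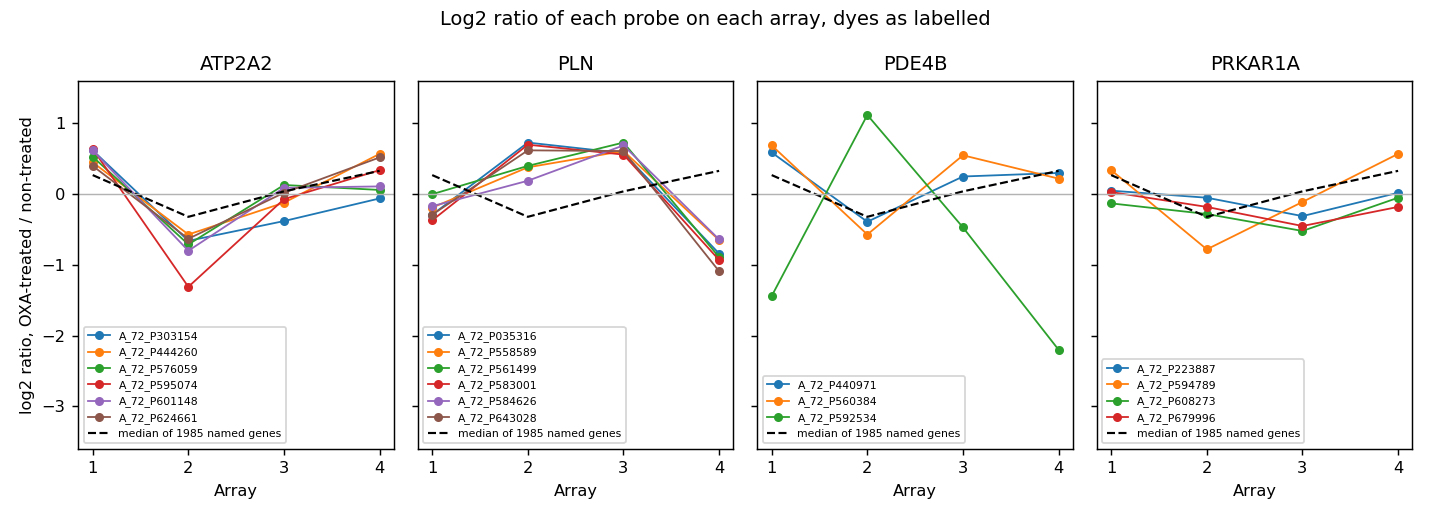
Log2 ratio of OXA-treated over non-treated tissue (y axis) on arrays 1 to 4 (x axis), with 1 coloured line per probe and a panel per gene; the dashed black line is the median of named genes. The lines join values of 1 probe and show no order of the arrays. The 6 PLN probes run together, on arrays 1 and 2 opposite to all 6 ATP2A2 probes, and PDE4B probe A_72_P592534 runs opposite to the other PDE4B probes.

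ATP2A2, the calcium pump gene, had no common direction over the 4 arrays. Its probe A_72_P303154 had processed signals of 5076, 4151, 3590 and 4030 in the OXA-treated channel of arrays 1 to 4, against 3293, 6568, 4682 and 4202 in the non-treated channel. The OXA-treated signal was the higher one on array 1 and the lower one on the other 3 arrays, and the channels overlapped. Probe A_72_P624661 had 1499, 1555, 1240 and 1532 in OXA-treated tissue, against 1136, 2407, 1225 and 1066 in non-treated tissue. Here the OXA-treated channel varied little between arrays, and the non-treated channel was high on array 2. All 6 probes were higher with OXA on array 1, all 6 were lower on array 2, 3 were higher on array 3 and 5 on array 4.

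Averaged over its 6 probes, the ATP2A2 log2 ratio was 0.54, -0.78, -0.05 and 0.26 on arrays 1 to 4, a mean of -0.01 ± 0.57 (SD, n = 4 arrays). The mean is far smaller than the spread between arrays. The lowest and highest probe means were -0.12 and 0.08. With array 2 turned the mean is 0.38 ± 0.36 (SD, n = 4), with probe means of 0.21 to 0.55, and 3 of the 6 probes have 1 sign throughout. Without array 2 it is 0.25 ± 0.30 (SD, n = 3). Relative to the median named gene of each array, ATP2A2 had 0.28, -0.46, -0.09 and -0.08 on arrays 1 to 4, and with array 2 turned the mean of these differences is 0.14 ± 0.27 (SD, n = 4). The largest departure of a single probe was that of A_72_P595074, at -1.31 on array 2, with signals of 281 in OXA-treated and 696 in non-treated tissue.

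PLN, the gene of the pump's inhibitor phospholamban, differed between the channels in opposite directions on different arrays. Probe A_72_P583001 had processed signals of 2869, 5764, 3867 and 3006 in the OXA-treated channel of arrays 1 to 4, against 3712, 3544, 2616 and 5718 in the non-treated channel. OXA-treated tissue was lower on arrays 1 and 4 and higher on arrays 2 and 3, so the channels overlapped. Probe A_72_P643028 had 2619, 4737, 3240 and 2343 in OXA-treated tissue, against 3208, 3076, 2127 and 4994 in non-treated tissue, with the same order on each array. The agreement between probes was close: all 6 were higher with OXA on arrays 2 and 3, and all 6 were lower on arrays 1 and 4, although A_72_P561499 was at 0.00 on array 1 after rounding.

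The PLN log2 ratios, as means of 6 probes, were -0.22, 0.50, 0.63 and -0.84 on arrays 1 to 4. The SD between its probes on 1 array was 0.06 to 0.21, against 0.68 between arrays. Their mean was 0.02 ± 0.68 (SD, n = 4), with probe means of -0.04 to 0.06. With array 2 turned the mean is -0.23 ± 0.63 (SD, n = 4), and array 3 remains the 1 array on which PLN was higher with OXA. None of the 6 probes then has 1 sign throughout. Without array 2 the PLN mean is -0.14 ± 0.74 (SD, n = 3). Relative to the median named gene, PLN had -0.49, 0.82, 0.59 and -1.18.

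As means of 6 probes, PLN and ATP2A2 lay on opposite sides of 0 on each array, with ATP2A2 close to 0 on array 3 and its probes divided there. Relative to the median named gene both lay below 0 on array 4, ATP2A2 at -0.08 and PLN at -1.18. The difference of their log2 ratios, PLN minus ATP2A2, does not depend on how an array is centred, and it was -0.76, 1.28, 0.68 and -1.10 on arrays 1 to 4. The transcript of the inhibitor relative to that of the pump thus differed by 1.61 to 2.44-fold between OXA-treated and non-treated tissue, lower with OXA on arrays 1 and 4 and higher on arrays 2 and 3. The mean difference was 0.03 ± 1.14 (SD, n = 4), and it is -0.62 ± 0.89 with array 2 turned. Over the 4 array values, the root mean square difference between the ratios of ATP2A2 and PLN was 0.99, with 87.5% of 1984 other named genes closer to ATP2A2 than PLN was, and 60.1% closer to PLN than ATP2A2 was.

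**Figure D2:**
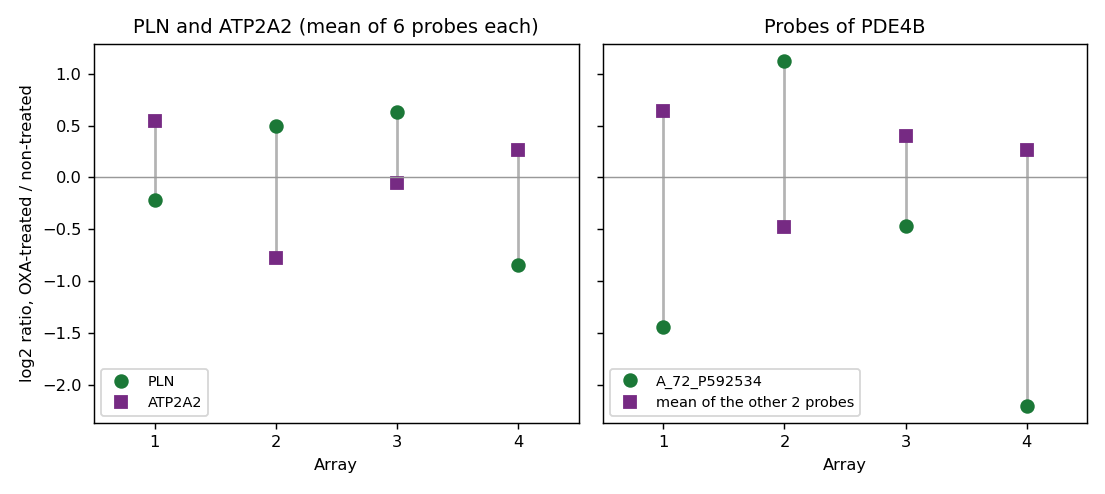
Log2 ratio of OXA-treated over non-treated tissue (y axis) on arrays 1 to 4 (x axis), as mean of 6 probes for PLN and ATP2A2 (left) and for probe A_72_P592534 and the mean of the other 2 probes of PDE4B (right); grey bars join the values of an array. Both pairs have opposite signs on each array, with ATP2A2 close to 0 on array 3 at -0.05.

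PDE4B, the gene of the cAMP-degrading enzyme, gave opposite readings with probes that carry the same transcript accession. Probe A_72_P592534 had processed signals of 279, 1871, 1841 and 639 in the OXA-treated channel of arrays 1 to 4, against 756, 863, 2556 and 2936 in the non-treated channel. OXA-treated tissue was lower on arrays 1, 3 and 4 and higher on array 2. Probe A_72_P440971 had 607, 412, 478 and 468 in OXA-treated tissue, against 403, 540, 401 and 381 in non-treated tissue. Probe A_72_P560384 had 495, 321, 340 and 397 in OXA-treated tissue, against 307, 475, 232 and 340 in non-treated tissue. With both of these probes OXA-treated tissue was higher on arrays 1, 3 and 4 and lower on array 2.

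The log2 ratio of A_72_P592534 was -1.44, 1.12, -0.47 and -2.20 on arrays 1 to 4, while the mean of the other 2 probes was 0.64, -0.48, 0.40 and 0.26. The distance between them was 1.83 to 5.51-fold, several times the scanner's error. The mean for A_72_P592534 was -0.75 ± 1.43, and that for the other 2 probes was 0.21 ± 0.48 (SD, n = 4 each). With array 2 turned the values are -1.31 ± 0.72 and 0.44 ± 0.16 (SD, n = 4 each), and all 3 probes then keep 1 sign on all 4 arrays, in opposite directions. The median named gene, at 0.27, -0.32, 0.04 and 0.33 as labelled, had the signs of the other 2 probes on each array. On array 4 it lay above their mean. With array 2 turned, the mean log2 ratios of the named genes have a median of 0.25. Averaging the 3 probes gave -0.11 ± 0.31 (SD, n = 4), a value that describes none of them. This average is -0.14 ± 0.29 (SD, n = 4) with array 2 turned and -0.17 ± 0.35 (SD, n = 3) without array 2. Relative to the median named gene it had -0.32, 0.37, 0.07 and -0.90 on arrays 1 to 4. Of 510 named genes with at least 3 tested probes, 6 (1.18%) had a probe opposite in sign to the mean of the others on all 4 arrays, PDE4B among them. The range between its probes averaged 1.83 on the log2 scale, against a median of 0.53 over these genes, and was smaller in 99.0% of them. The SD over arrays of A_72_P592534 was larger than that of 95.5% of tested probes, against 30.5% and 48.5% for the other PDE4B probes. The probe sequences were not used here, so which part or strand of the transcript each probe reads was not tested.

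PRKAR1A, which encodes the regulatory subunit type I alpha of protein kinase A, varied least of these genes as labelled. With array 2 turned the SD of its gene mean is 0.28, close to 0.29 for PDE4B. Probe A_72_P223887 had processed signals of 15283, 10008, 11435 and 15228 in the OXA-treated channel of arrays 1 to 4, against 14740, 10330, 14184 and 15052 in the non-treated channel. The channels lay close together, with array 3 the exception. Its log2 ratio was 0.05, -0.05, -0.31 and 0.02, a mean of -0.07 ± 0.16 (SD, n = 4). Probe A_72_P608273 had -0.13, -0.28, -0.52 and -0.05 (mean -0.24 ± 0.21), the single probe of the 19 with 1 sign on all 4 arrays as labelled. Probe A_72_P679996 had 0.03, -0.18, -0.45 and -0.18 (mean -0.20 ± 0.20; SD, n = 4). Apart from -0.28 for A_72_P608273 on array 2, the values of these 3 probes on arrays 1, 2 and 4 were smaller than the scanner's error, and on array 3 all 3 were lower with OXA by more than that. As labelled, only 3.83% to 6.78% of tested probes varied less between arrays than these 3. With array 2 turned their SDs are 0.18, 0.33 and 0.27. PDE4B probes A_72_P440971 and A_72_P560384 then have 0.15 and 0.20.

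The other PRKAR1A probe, A_72_P594789, differed from these. Its processed signals were 682, 354, 517 and 768 in OXA-treated tissue, against 540, 607, 558 and 518 in non-treated tissue. Its log2 ratio was 0.34, -0.78, -0.11 and 0.57, a mean of 0.00 ± 0.59 (SD, n = 4), higher with OXA on arrays 1 and 4 and lower on arrays 2 and 3. As a mean of 4 probes PRKAR1A had 0.07, -0.32, -0.35 and 0.09, or -0.13 ± 0.24 (SD, n = 4), 0.03 ± 0.28 with array 2 turned, and -0.06 ± 0.25 (SD, n = 3) without array 2. Relative to the median named gene it had -0.19, 0.00, -0.38 and -0.24, so it was at that median on array 2 and below it on the others.

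**Figure D3:**
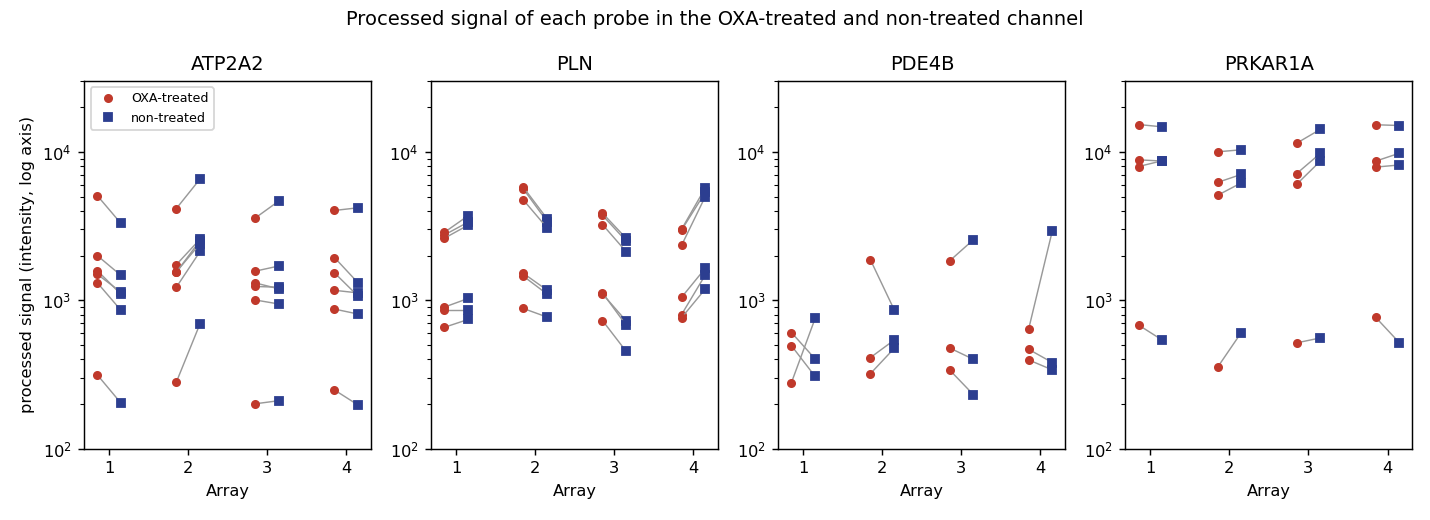
Processed signal intensity on a log axis (y) for each probe on arrays 1 to 4 (x), with OXA-treated tissue as red circles and non-treated tissue as blue squares; grey lines join both channels of a probe. PLN changes side between arrays 1 and 4 and arrays 2 and 3, and the PRKAR1A probes other than A_72_P594789 show short lines.

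**Figure D4:**
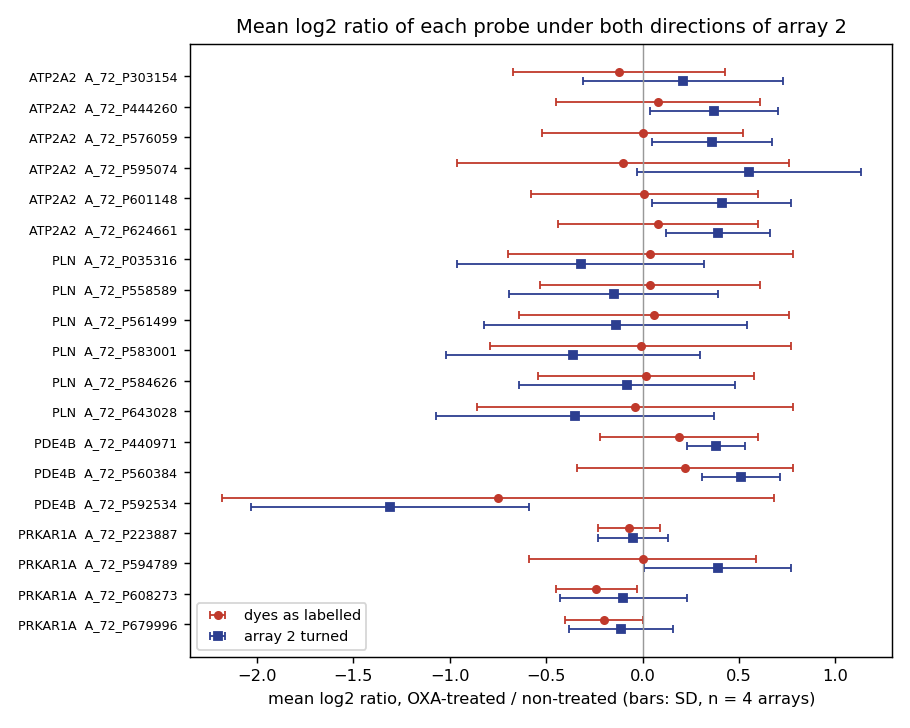
Mean log2 ratio of OXA-treated over non-treated tissue (x axis, bars are the SD over 4 arrays) for each of the 19 probes (y axis), with dyes as labelled (red circles) and with array 2 turned (blue squares). Turning array 2 moves all ATP2A2 probes up, to 0.21 to 0.55, and all PLN probes down, to -0.36 to -0.08.

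By the sample labels, the dye contrast was not used to pick the genes and could be tested. If Cy5 held OXA on every array, it would be the OXA contrast itself. In the limma fit, the Cy5 over Cy3 term called 0 of 19501 probes (0.0%, lowest adjusted p = 0.896), with 478 at an unadjusted p under 0.05. Without array 4 it called 1149 probes, and 12 to 154 without another array. For the 19 probes its estimates were -0.21 to 0.40 on the log2 scale, with standard errors of 0.26 to 0.56, and 15 of them were positive, against 52.5% of tested probes (limma's adjusted p = 1 for each, lowest unadjusted p = 0.201). Every ATP2A2 and PLN probe had a positive estimate as labelled, and probes of 1 gene are not independent of each other. With array 2 turned, limma also called 0 probes for dye (0.0%, lowest adjusted p = 0.0961), with 1156 at an unadjusted p under 0.05. The estimates of the 19 probes are then -0.14 to 0.60 and 14 are positive, against 51.1% of tested probes (limma's lowest adjusted p = 0.857). With array 2 turned, array 4 alone has OXA in Cy3, so the dye term sets it against the other arrays and is not balanced. As labelled, the highest dye estimates were those of PDE4B probe A_72_P560384 (0.40) and ATP2A2 probe A_72_P595074 (0.38). For most of these probes the dye estimate was larger in size than the OXA mean.

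Other genes of both pathways were taken from 7 lists. Of 148 listed genes 43 had a named probe and 26 were measured, so the pathways were seen in part. Of these 26, 13 had a positive and 13 a negative mean log2 ratio, with a median of -0.02, against 0.07 over all 1985 named genes. None of the 26 had 1 sign on all 4 arrays (8.06% of named genes did), and limma called 0 of them. With array 2 turned 11 of the 26 had 1 sign throughout, against 34.1% of named genes. The genes named below were chosen after their values were seen, since none met the rule of a common sign. Their means are as labelled. With array 2 turned some change sign, such as ORAI1 (-0.19 to 0.66) and ATP2B1 (0.36 to -0.20). Others keep it, such as CAMK2D (-0.22 to -0.36) and PKIG (0.27 to 0.59).

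Among genes of the calcium stores, the store sensor STIM1 had 0.32, -0.44, -0.40 and 0.58 on arrays 1 to 4, a mean log2 ratio of 0.01 ± 0.51. ORAI1, the channel that STIM1 opens, had 0.61, -1.71, 0.05 and 0.27, a mean of -0.19 ± 1.03 (SD, n = 4). Both were lower with OXA on array 2, as ATP2A2 and the median named gene were. The probes of ATP2A1, another SERCA gene, and of SLN, the gene of the SERCA inhibitor sarcolipin, stayed below that level on every array, so no ratio is given. At the plasma membrane, ATP2B1, a calcium-exporting pump, averaged 0.36 ± 0.53 over 5 probes whose means ran from -0.06 to 0.66. KCNMB1, a subunit of the calcium-activated potassium channel, had -0.08 ± 0.73 (SD, n = 4), with -1.17 on array 2.

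Of 6 measured genes of calmodulin, its kinases and calcineurin, 2 were positive and 4 negative on average. CAMK2D, a subunit of the calmodulin-dependent kinase that also phosphorylates phospholamban in the heart, had -0.19, 0.28, 0.00 and -0.96 on arrays 1 to 4, a mean of -0.22 ± 0.53 (SD, n = 4). Like PLN, it was lower with OXA on arrays 1 and 4 and higher on array 2.

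For cAMP synthesis, 2 of 6 measured genes were positive and 4 negative. GNAS, which encodes the stimulatory G protein alpha subunit, had a mean log2 ratio of -0.04 ± 0.15 (SD, n = 4) over 14 probes, the steadiest of this group. The inhibitory subunit gene GNAI3 had -0.53, -0.20, 0.19 and -1.43, a mean of -0.49 ± 0.69. The beta-adrenergic receptor gene ADRB1 had 0.01 ± 0.70 (SD, n = 4), with -0.98 on array 2. Of other phosphodiesterases 2 were measured. PDE4A, of the same family as PDE4B, had 0.74, -0.69, 0.12 and 0.68, a mean of 0.21 ± 0.66, with the signs of the PDE4B probes A_72_P440971 and A_72_P560384 on each array. The median named gene had these signs as well. PDE3A, which also degrades cAMP, had 0.05 ± 0.45 (SD, n = 4).

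Of other protein kinase A genes, the inhibitor genes PKIA and PKIG had -0.18 ± 0.56 and 0.27 ± 0.63 (SD, n = 4). AKAP9, an anchor of protein kinase A, had -0.85, 2.27, 0.05 and -1.29, the widest range of the 26 genes. No catalytic subunit was among the measured genes. Of the cAMP-induced genes, the orphan receptor genes NR4A2 and NR4A3 had -0.04 ± 0.15 and 0.26 ± 0.66, and FOS had 0.01 ± 0.35 (SD, n = 4).

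Genes with the most similar values were sought by the root mean square difference of log2 ratios over the 4 arrays, a likeness that rests on 4 numbers and on 1984 genes compared. For ATP2A2 they were CC2D1A (0.04), CA11 (0.04) and C14H10orf120 (0.05), each with 1 probe. For PLN they were TFAM (0.21), TGFB3 (0.24) and NHLRC2 (0.25), so even the nearest gene lay farther from PLN than these 3 did from ATP2A2. For PDE4B, whose mean joins disagreeing probes, they were NLN (0.04), LACTB (0.08) and SUV39H2 (0.09). For PRKAR1A they were TMOD4 (0.10), PSME1 (0.10) and STAT2 (0.12).

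The tissue label was checked against marker genes. Of 10 smooth muscle markers 5 had a named probe and all 5 were measured (ACTA2, CNN1, DES, SMTN and MYLK), with a summed processed signal of 107182 to 268958 in OXA-treated and 93264 to 313243 in non-treated tissue. Their median log2 ratio was -0.56, -0.16, 0.27 and 0.05 on arrays 1 to 4. PLN had the sign of this median on arrays 1 and 3 and the opposite sign on arrays 2 and 4. Of the 5 markers, 4 were lower with OXA on array 2, where PLN was higher, and 3 were higher with OXA on array 4, where PLN was lower. MYLK had -1.15, 0.23, 0.64 and -1.42 on arrays 1 to 4, with the sign of PLN on each array. The other 4 markers differed from PLN in sign on array 2.

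The list medians of epithelial and macrophage markers ranged more widely over the arrays than ATP2A2 and PLN did, although single markers such as SPP1 and CD74 did not. Of 10 epithelial markers 5 were measured, with medians of -1.15, 2.06, -0.92 and 1.97, positive on the arrays with OXA in Cy3, and a summed signal of 1333 to 7622 in OXA-treated and 1303 to 3308 in non-treated tissue. Of 11 macrophage markers 8 were measured, with medians of 0.70, -0.81, 1.74 and 0.72 and a summed signal of 1180 to 8365 in OXA-treated and 1240 to 5048 in non-treated tissue. ATP2A2 had the sign of the macrophage median on arrays 1, 2 and 4, as it had that of the lymphocyte median and of the median named gene. It had the sign of the heart and skeletal muscle median on all 4 arrays, and of the other list medians on fewer arrays. The genes behind that heart and skeletal muscle median disagreed. TNNI3 had 0.27, 1.02, -0.30 and -0.49 on arrays 1 to 4, and ACTC1 had -0.12, -0.38, 0.57 and 0.24. CKM, at 1.07, -0.77, -0.06 and 0.03, alone of these genes had the sign of ATP2A2 on each array. Endothelial markers (5 of 8 measured) had medians of -0.42, -0.54, 0.16 and 0.71, with summed signals of 3146 to 7659 in OXA-treated and 3572 to 5779 in non-treated tissue. Stromal markers (4 of 8) had -0.12, -0.58, 0.22 and -0.38, with summed signals of 26818 to 35655 in OXA-treated and 30546 to 49624 in non-treated tissue. Of 8 lymphocyte markers 2 were measured, with medians of 0.65, -0.45, 0.56 and 0.40 and summed signals of 230 to 530 in OXA-treated and 206 to 404 in non-treated tissue, and CD3D, CD2 and CD4 passed the background flag on no array. Of 9 markers of heart and skeletal muscle, where SERCA2 and phospholamban are best known, 3 were measured (TNNI3, ACTC1 and CKM), with medians of 0.27, -0.38, -0.06 and 0.03 and summed signals of 8063 to 26837 in OXA-treated and 6050 to 20695 in non-treated tissue. The heart light chain gene MYL2 passed the background flag on no array. The part of these cell types in the ratios of ATP2A2, PLN, PDE4B and PRKAR1A was not tested.

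**Figure D5:**
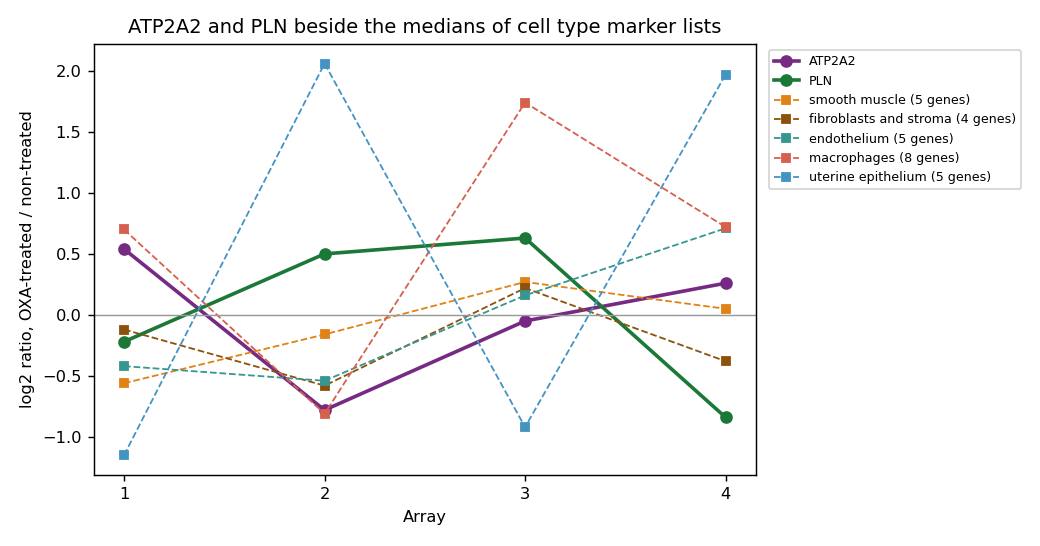
Log2 ratio of OXA-treated over non-treated tissue (y axis) on arrays 1 to 4 (x axis) for ATP2A2 and PLN (solid lines, mean of 6 probes) and as medians of 5 marker lists (dashed lines, number of measured genes in the legend). The lines show no order of the arrays. Epithelial medians run from -1.15 to 2.06, beyond the range of both genes.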

How the data were processed

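Per the file headers, Feature Extraction 10.7.3.1 produced the intensity values deposited by the authors, for spots, local background and processed signal. A log10 ratio of Cy5 over Cy3 and its error are deposited with them. Ratios in log2 came from the authors' deposited value table, and the labels state neither direction nor scale. Set against the scanner values of each array, it had a slope of 1 on both arrays labelled with OXA in Cy5 and of -1 on both others, with at least 99.9% of tested probes within 0.001, so it runs as OXA over non-treated by the sample labels. Its column medians over all probes were 0.10, 0.10, -0.19 and 0.07, and no centring was found. All 4 arrays lie on 1 slide, so no slide effect could be fitted.

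The value table gave the ratios, and the scanner files gave levels and flags. A probe was tested if the scanner's background flag was passed on 3 or more of the 4 arrays in either channel and a value was listed for every array (19501 probes, 5 others lacked a value). Accessions, with versions removed, were looked up in the Sscrofa11.1 RefSeq table, used for names alone, which named 6700 probes of 3029 genes. A gene's value is the mean over its tested probes. Levels of different probes were not compared. The limma 3.58.1 model (R 4.3.3) had a term for OXA and one for dye, with 2 residual and 4.1 prior degrees of freedom, two-sided tests and Benjamini-Hochberg adjustment over all tested probes at a threshold of 0.05. Tested on simulated data for OXA over non-treated (19501 probes), the model found none (0%) of the 2-fold changes, none (0%) of the 4-fold changes and 34.8% of the 8-fold changes, and called 0 unchanged probes. The simulated noise took the SDs of the tested probes over the arrays as labelled. It was drawn independently for each array, with no dye effect. These shares hold for that reading and not for array 2 turned. The number of arrays limits precision.

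The genes, the lists, the tests and the turning of array 2 were chosen with earlier results of these data known. Genes were named by rule: the 4 genes always, 2 per pathway list with the largest mean among those of 1 sign on all arrays (none qualified), and the 3 nearest genes to each. Alternatives were normexp (offset 50) with loess on median signals, loess without background subtraction, median centring, no filter, a filter on all arrays and channels, array 2 turned, OXA in Cy5 on all arrays, no dye term, the brightest probe and leaving out each array. Leaving out PDE4B probe A_72_P592534 and centring on named genes were chosen after seeing the data. Probe and promoter sequences and genome positions were not used here. Some genes are not reported here.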

Additional observations from a re-analysis of the deposited data

Results flagged for a closer look

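Of 34 sets of 4 array values, 2 (5.88%) had 1 array far from the rest, judged by its gap over the range of the set. About 5% are expected by chance. None of the 19 probes and none of the genes ATP2A2, PLN, PDE4B and PRKAR1A was among them. The median log2 ratio of the measured plasma membrane calcium genes reached 0.34 on array 1, with 0.09 to 0.13 on arrays 2 to 4. That of the measured cAMP synthesis genes stood at -0.63 on array 2, with 0.08 to 0.16 on arrays 1, 3 and 4. The median over all tested named genes was 0.27, -0.32, 0.04 and 0.33 on arrays 1 to 4, and the flagged values are given without subtracting it.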

How the results depend on the processing

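The means of ATP2A2, PLN and PRKAR1A moved by less than 1 SD between arrays under every alternative listed in the processing section that applies to them, and their signs are not settled by these data. If Cy5 held OXA on every array, the means were 0.25 for ATP2A2, 0.19 for PLN, 0.14 for PDE4B and -0.01 for PRKAR1A, and dye could then not be told from OXA. Leaving out 1 array gave -0.19 to 0.25 for ATP2A2, -0.19 to 0.30 for PLN, -0.19 to 0.04 for PDE4B and -0.20 to -0.05 for PRKAR1A. For PDE4B the choice of probe decided the value, which was -0.75 with the brightest probe and 0.21 without A_72_P592534, against -0.11 as the mean of 3 probes. Of the 26 pathway genes, 13 were positive, and 11 to 16 under the alternatives that kept all 26. Without the filter 16 of 43 were positive, and 10 of 22 with the filter on all arrays and channels. limma called 0 probes for OXA and for dye under each alternative that kept all 4 arrays. Without array 2 it called 1093 probes for OXA, and 1, 5 and 6 without arrays 1, 3 and 4. The range for OXA was thus 1 to 1093, and that for dye 12 to 1149, highest without array 4. With 3 arrays, 1 residual degree of freedom is left and the spread comes from the 2 arrays that share a dye orientation. All probes then shared 1 variance (infinite prior degrees of freedom), so these counts do not rest on each probe's own spread.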

Other observations

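Probes of 1 gene disagreed more than those of PDE4B in 4 of 510 named genes with at least 3 tested probes. The range between probes, averaged over arrays, was 2.49 on the log2 scale for CFL2, a muscle cofilin, 2.34 for FGL2 and 2.07 for FCGR2B, an inhibitory Fc receptor, which are 3 of the 4. None of these 3 had a probe opposite in sign to the mean of its other probes on all 4 arrays, as PDE4B had. These genes were named after their values were seen. Probes spotted 5 times on an array, 11 to 14 of which were above background in all spots, had a median SD between spots of 0.056 to 0.074 on arrays 1 to 3 and 0.178 on array 4, in log2 ratio.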
